A study of Homo sapiens with 32 samples.

Results

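The 42 genes described here encode proteins that detect damaged DNA, pass on the damage signal and repair it: the kinases ATM, ATR and DNA-PKcs (PRKDC) and their partners, the BRCA and Fanconi anaemia proteins, the RecQ helicases, and the end-joining and mismatch repair factors. They were chosen by name, and a peak counted when its summit lay in the RefSeq span of a member. Same-strand peaks of the 4 lists that overlapped by 1 bp or more were joined into loci, which gave 320 in these genes, of 66409 loci in all. Each of the 42 genes had at least 1 locus, and 14109 RefSeq genes of any kind had one. N6-methyladenosine (m6A) was measured by antibody enrichment and sequencing (MeRIP-seq) in chromatin-associated RNA, depleted of ribosomal RNA, from the established human melanoma line A375. The 4 libraries used, of 32 samples in the series, comprised 2 of A375 carrying a control hairpin (shControl, genotype given as WT) and 2 of A375 carrying a hairpin that targets METTL3 (shMETTL3, genotype given as METTL3 knockdown), here called control and knockdown. The labels name a single line, give no time or clone for the hairpins and do not say whether replicates were separate cultures, and p-values then measure only the spread between these samples, possibly technical.

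METTL3 is the subunit of the m6A writer complex that carries its catalytic activity. The complex acts on nascent transcripts within a short sequence context that contains the core AC preceded by A or G. The mark is known to be frequent near stop codons and in long internal exons, and it is read by proteins that change splicing, export, translation and decay of the RNA. In the damage response, sensor complexes load at a break or a stalled replication fork, the kinases signal to the checkpoint, and the break is then joined directly or copied from the sister chromatid. The comparison asks which m6A loci of the repair genes were found with and without METTL3 knockdown. Peak lists carry no RNA level, and fewer methylated molecules and less RNA cannot be told apart here. METTL3 itself had 4 loci in both control lists and 4 in both knockdown lists, with 3 in all 4, which does not measure its RNA. Of the markers of cell types, 6 of 6 genes of the dedifferentiated melanoma state had a locus, against 1 of 7 melanocyte lineage genes (MITF), 1 of 5 keratinocyte, 1 of 5 endothelial and 0 of 5 leukocyte genes. Of the 53 loci that the dedifferentiated state genes had in both control lists, 26 (49.1%) were absent from both knockdown lists, and 23 of these 26 were in TNC. Among their loci found in both lists of 1 group and in none of the other, 76.5% were on the control side. Their part in the counts for the repair genes was not tested.

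Of the transcripts, bases could be read only at the RefSeq start sites of 36 of the 42 genes. Peaks covered the first 30 bases in full at 6 start sites in 5 of these, with 2 sites in ATM. They are shown because they are the stretches of member RNA under a peak whose letters were at hand. They are written 5′ to 3′ on the gene strand (RefSeq, GRCh38.p14), with AAC or GAC in capitals.
ATM, first start: aggtagctgcgtggctAACggagaaaagaa
ATM, second start: ctttcctggcctctctccgggtgcttagcg
ATRIP: agttgtcAACcgcgccagatccccttgatg
FANCM: ccagagttttgtgcgaaggaAACcgatggg
PARP1: agcaatctatcagggAACggcggtggccgg
RECQL5: gaattcccagcgctttggcttctctgagtt
These lie at chr11:108223067-108223096, chr11:108223325-108223354, chr3:48447126-48447155 and chr14:45135930-45135959 on the plus strand, and at chr1:226408064-226408093 and chr17:75667125-75667154 on the minus strand. Peaks over the start of PARP1, which encodes the main enzyme making poly(ADP-ribose) at strand breaks, were in all 4 lists, with fold enrichments over background of 4.12 and 4.20 in control replicates 1 and 2 and 3.33 and 2.53 in knockdown replicates 1 and 2. Those over the start of RECQL5, a RecQ helicase gene, had folds of 3.19 and 3.45 in control and 4.59 and 3.36 in knockdown. The start of ATRIP, the partner of ATR, was covered in full in both control lists (3.74 and 3.87) and in neither knockdown list. Its locus had a peak in knockdown replicate 2 (2.86) that did not cover these bases in full. The first start of ATM was covered in 1 list of each group (3.4 in control replicate 1 and 3.71 in knockdown replicate 1), and its second start in both knockdown lists (3.71 and 3.42) and neither control list. The start of FANCM, a DNA translocase gene, was covered in full in control replicate 1 only (9.65). AAC or GAC was present in 4 of these 6 stretches and in 49.3% of the first 30 bases at all 35116 start sites of the table, searched on the gene strand only.

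Fewer peaks of the repair genes were listed after knockdown. The 42 genes held 232 and 256 peaks in control and 192 and 189 in knockdown, a mean of 244 ± 17 against 190.5 ± 2.12 (SD, n = 2 each). The groups did not overlap, with p = 0.33 in an exact permutation test (two-sided), the smallest value possible for 2 against 2 libraries. The lists themselves were shorter after knockdown, with 44108 and 42969 peaks against 45345 and 47692 in control. As a share of its list, the repair genes held 0.512% and 0.537% in control and 0.435% and 0.440% in knockdown (exact permutation p = 0.33). The lists carry no read counts, so depth is unknown.

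**Figure D1:**
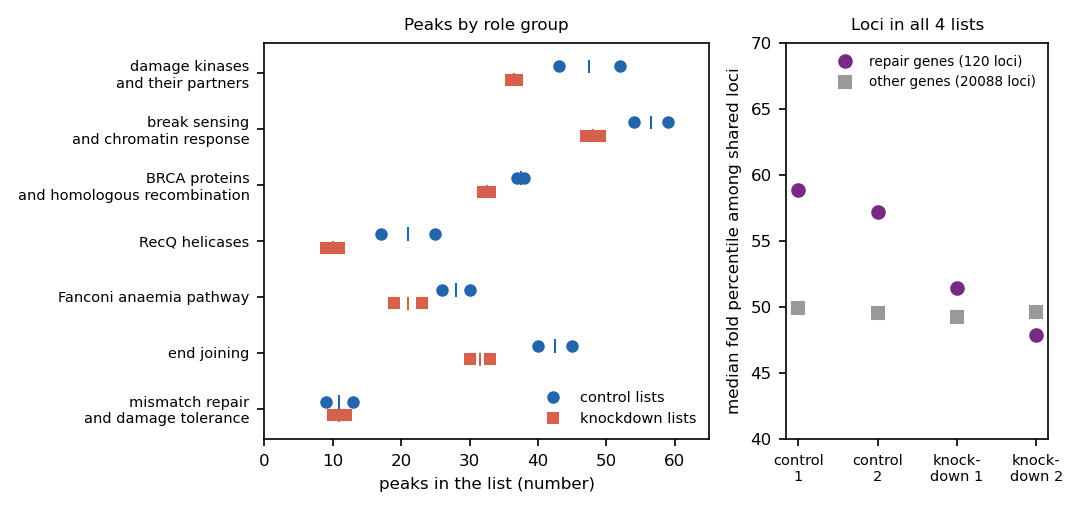
Left, number of peaks in the members of each role group in the 2 control lists (circles) and the 2 knockdown lists (squares), with a short line at each mean. Right, median fold percentile of loci found in all 4 lists, ranked among those loci within each list, for the repair genes and other protein-coding genes; 6 of the 7 role groups have lower peak numbers in both knockdown lists, and the repair genes' median percentile is 58.9 and 57.1 in control and 51.4 and 47.9 in knockdown.

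The lower numbers were spread over the role groups shown in the plot of peaks by group. The damage kinases and their partners had 43 and 52 peaks in control and 36 and 37 in knockdown, and the break-sensing group 59 and 54 against 47 and 49. The BRCA and recombination genes had 38 and 37 against 32 and 33, and the Fanconi anaemia genes 26 and 30 against 23 and 19. RecQ helicases, which unwind recombination and replication intermediates, had 17 and 25 against 9 and 11, and end-joining genes 40 and 45 against 33 and 30. Only the group of MSH3, MSH6 and RAD18 overlapped, with 9 and 13 against 12 and 10. None of the 7 comparisons can pass a test at this size (exact permutation p = 0.33 for 6 groups and p = 1 for the last). By gene, 17 of 42 had fewer peaks in both knockdown lists than in either control list (40.5%) and 3 had more (7.14%), namely BARD1, FANCL and XRCC4. Among the 10702 other protein-coding genes with a locus these shares were 24.4% and 19.4%, and weighted to genes with as many loci as the members they were 29.6% and 20.4%.

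Whether single loci were lost was next asked by their presence in the lists. Of the 320 loci, 120 (37.5%) were in all 4 lists, close to the 36.6% of loci in other protein-coding genes. Of the 197 loci in both control lists, 45 were absent from both knockdown lists, here termed control-only (22.8%, 95% Wilson interval 17.5% to 29.2%, which covers counting error only). The same share was 21.4% over other protein-coding genes and 22.6% over all loci of the lists. Of the 144 loci in both knockdown lists, 15 were absent from both control lists, here termed knockdown-only (10.4%, interval 6.41% to 16.5%). Here other protein-coding genes gave 18.3%, and all loci 18.9%. Control-only loci thus made up 45 of the 60 moved loci (75%, interval 62.8% to 84.2%), against 56.3% in other protein-coding genes. Loci of a gene share a transcript and are not independent, so these intervals are too narrow and no test over loci was made. Control-only loci numbered 88 without control replicate 1, and knockdown-only loci 30 and 28 without knockdown replicates 1 and 2, since 1 list then sufficed for a group.

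The repair genes are long genes with many loci, a median of 7 per gene and of 79.2 kb, against 4 and 34.6 kb in other protein-coding genes with a locus. When other genes were weighted to the same classes of loci per gene, their control-only share was 21.6%, which corresponds to 42.5 loci beside the 45 found. Their knockdown-only share was 17.6%, or 25.4 loci beside the 15 found, and the control-only share of moved loci 59.1%. Among loci in both lists of a group, the control-only share was therefore near that of genes with as many loci. The difference in balance there lay on the side of knockdown-only loci. Other patterns leaned to control as well, without weighting. In 1 control list only there were 62 loci and in 1 knockdown list only 27, against 7822 and 7424 in other protein-coding genes. Both control lists and 1 knockdown list held 32, and 1 control list and both knockdown lists 9, against 4251 and 2887. Members with 9 to 16 loci had 24 of 83 control loci control-only (28.9%, against 22.2% of other genes in the class) and 6 of 54 knockdown loci knockdown-only (11.1% against 16.1%). Members with 5 to 8 loci had 9 of 47 (19.1% against 21.1%) and 5 of 37 (13.5% against 17.3%). The 3 members with 17 or more loci (ATR, TP53BP1 and RAD50) had 10 of 45 (22.2% against 21.1%) and 3 of 31 (9.68% against 18.1%).

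**Figure D2:**
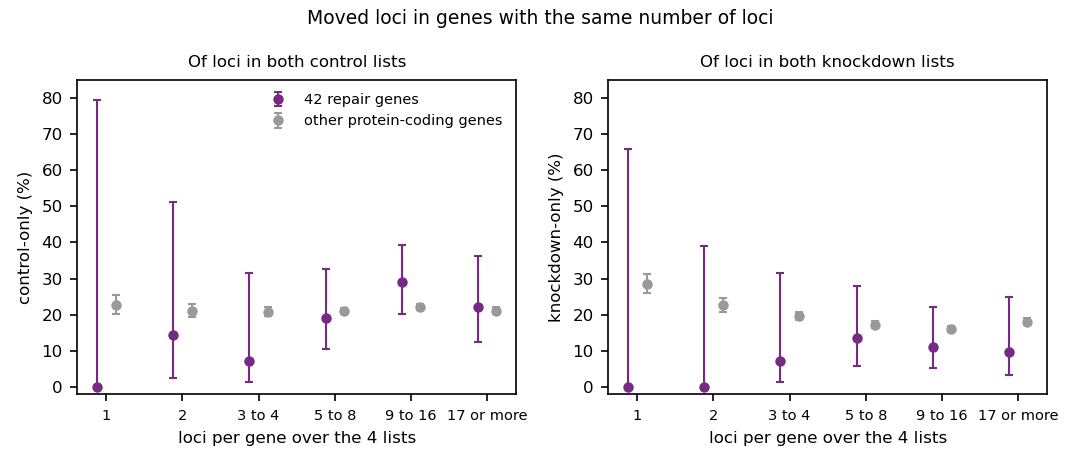
Share of loci in both control lists that are control-only (left, in percent) and of loci in both knockdown lists that are knockdown-only (right, in percent), by the number of loci per gene, for the 42 repair genes and other protein-coding genes. Bars are 95% Wilson intervals over loci; the repair genes' control-only shares lie on both sides of those of other genes, and their knockdown-only shares lie below them in each of the 6 classes, with wide intervals.

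Counted by gene, 17 members had more control-only than knockdown-only loci (40.5%, against 28.8% of other protein-coding genes and 36.1% of those with as many loci). Only 4 had more knockdown-only loci (9.52%, against 23.8% and 26.5%), namely BARD1, RAD52, FANCL and XRCC4. Equal numbers were found in ATM, BRCA1, RAD50, RAD51B and CLSPN, and 16 members had no moved locus (38.1%, against 43.7% and 32.1%). With opposite-strand loci left out, BRCA1 (0 control-only and 1 knockdown-only) and RAD51B (1 and 2) also had more knockdown-only loci. This made 6 members, and 3 had equal numbers. At least 3 control-only loci were found in 7 members (16.7%, against 6.85% and 11.8%), and at least 3 knockdown-only loci in 0 (against 4.06% and 6.82%). The plot of loci by gene shows each member.

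**Figure D3:**
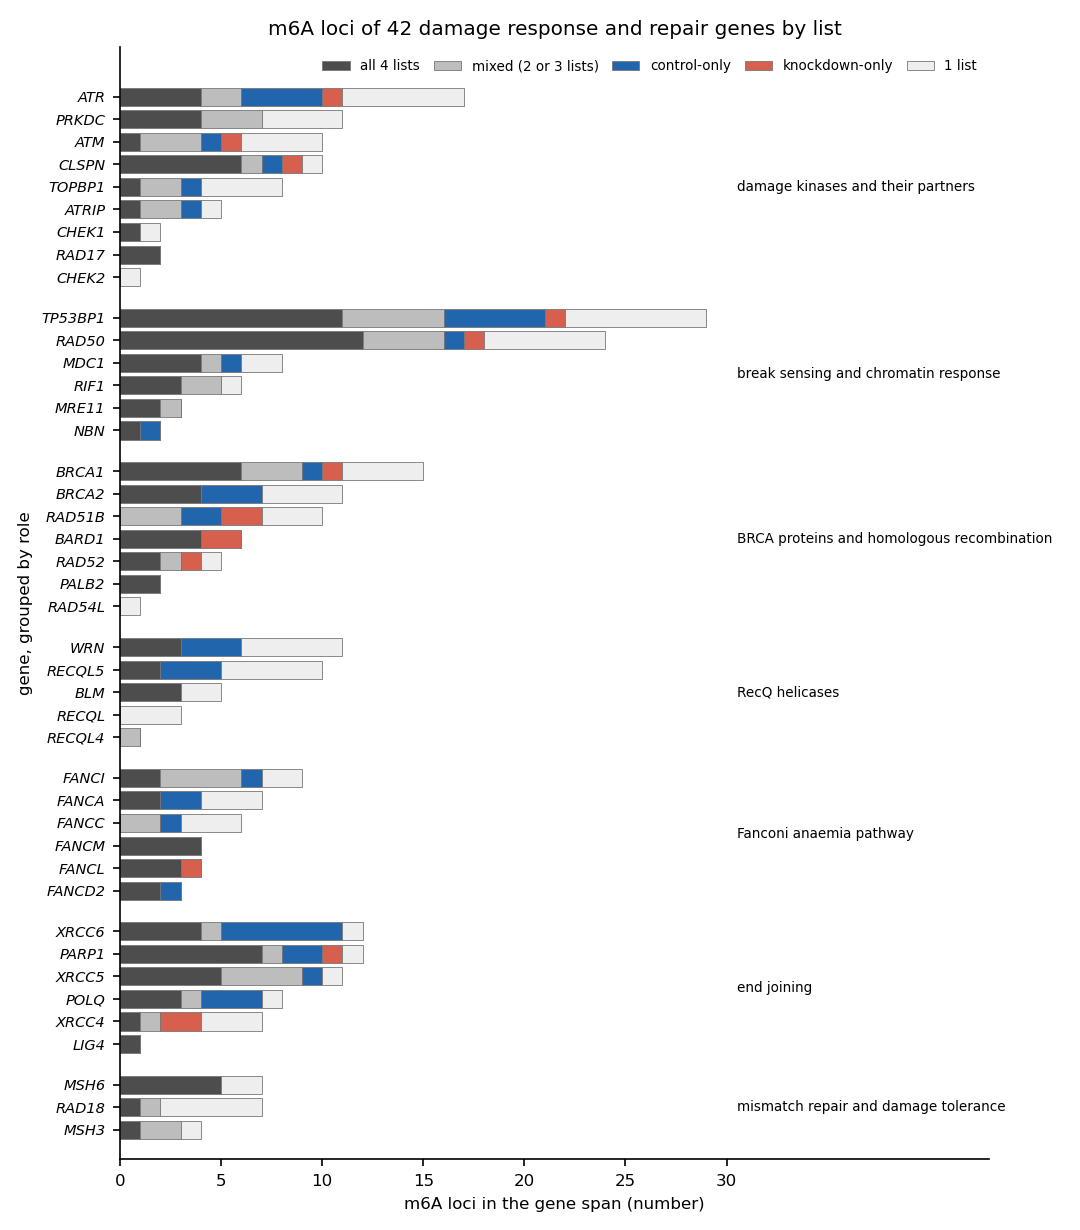
Number of m6A loci in each of the 42 genes (horizontal axis), grouped by role and coloured by the lists that hold them: all 4, a mixture of 2 or 3 lists, both control lists only, both knockdown lists only, or 1 list. TP53BP1 has the most loci (29) and XRCC6 the most control-only loci (6); knockdown-only loci number at most 2 in any gene.

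Among the damage kinases and their partners, 8 of 35 control loci were control-only and 3 of 27 knockdown loci knockdown-only. For this and the following groups, the shares in other protein-coding genes were 21.4% and 18.3%. ATR, the kinase activated at stalled replication forks, had 10 and 12 peaks in control and 11 and 11 in knockdown, so its peak number did not separate the groups. Yet 4 of its 9 control loci were control-only, and 3 of these lay side by side next to a broad locus of all 4 lists. They were chr3:142475880-142476226 with folds of 4.16 and 5.45, chr3:142476722-142477641 with 4.01 and 3.78, and chr3:142475321-142475578 with 3.16 and 2.58. The broad locus beside them, chr3:142477818-142481319, had folds of 7.14 and 7.98 in control and 5.81 and 6.91 in knockdown, and the nearest control-only locus lay 177 bp from it. ATR also had a knockdown-only locus at chr3:142532173-142532400 (3.25 and 3.51), within the pseudogene SUCLG2P1. Its excess of control-only over knockdown-only loci was 3, and 1 without knockdown replicate 2. ATM, the kinase activated by double-strand breaks, had 1 locus of each kind, and the knockdown-only one lies also in C11orf65, a gene that overlaps its end.

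CLSPN encodes claspin, the adaptor through which ATR activates CHK1. It had 9 and 8 peaks in control and 7 and 8 in knockdown, and 6 of its 10 loci were in all 4 lists. Its locus at chr1:35764290-35764845, 5566 bp from the gene start, had the highest rank of all member loci, with folds of 13.1 and 12.9 in control and 14.3 and 14.5 in knockdown. A second locus, at chr1:35753831-35754064, had 8.12 and 6.87 against 8.30 and 9.62, and a control-only locus at chr1:35738064-35738224 had 5.41 and 5.11. TOPBP1, the activator of ATR, had 5 and 6 peaks against 3 and 2, and ATRIP 4 and 5 against 1 and 3, with 1 control-only locus each. All 5 loci of ATRIP lie also in the readthrough gene ATRIP-TREX1. PRKDC, the catalytic subunit of the DNA-dependent protein kinase, had 7 and 9 peaks against 6 and 6 and no moved locus. RAD17, which loads the checkpoint clamp, kept both of its loci in all 4 lists, at 635 and 314 bp from the gene end. CHEK1, encoding the effector kinase CHK1, kept its 1 control locus, and CHEK2 had a single peak in control replicate 2. CHEK2 has pseudogene copies elsewhere in the genome, which makes reads of this gene uncertain.

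In the break-sensing group, 8 of 48 control loci were control-only and 2 of 38 knockdown loci knockdown-only. TP53BP1, encoding the chromatin protein 53BP1 that favours end joining over resection, had 22 and 20 peaks in control and 17 and 18 in knockdown. On its own strand 5 loci were control-only and 0 knockdown-only. They were scattered over the gene, with chr15:43438372-43438527 (folds of 5.21 and 3.93), chr15:43407351-43407593 (3.46 and 4.37) and chr15:43492388-43492601 (2.95 and 5.03) ranking highest. Its 11 loci in all 4 lists included chr15:43432233-43432791, with 7.59 and 7.16 in control and 7.03 and 9.28 in knockdown. Of its 29 loci 6 were on the opposite strand, among them its only knockdown-only locus, which lies also in TUBGCP4. The control-only locus at chr15:43407351-43407593, on the strand of TP53BP1, lies also in the span of TUBGCP4.

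RAD50, the ATPase of the complex of MRE11, RAD50 and NBN that tethers broken ends, showed the most shared loci of all members, with 12 of 24 in all 4 lists. Its peaks numbered 20 and 18 in control and 16 and 16 in knockdown, and it had 1 control-only and 1 knockdown-only locus. The highest-ranked shared locus, chr5:132595501-132595750, had folds of 9.46 and 8.17 in control and 6.54 and 8.23 in knockdown. MRE11, the nuclease of the complex, had 2 loci in all 4 lists, but these were on the opposite strand and lie also in ANKRD49. NBN kept a locus with folds of 8.40 and 6.68 against 10.2 and 8.07, and a weaker one was control-only. MDC1, the scaffold that binds phosphorylated histone H2AX, had 8 and 6 peaks against 5 and 5. Its control-only locus lay 638 bp from the gene end. RIF1, a partner of 53BP1, kept 3 of 3 control loci.

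The BRCA proteins and recombination factors were the group with the highest knockdown-only share, with 6 of 29 control loci control-only and 6 of 24 knockdown loci knockdown-only. BRCA2, a central factor of homologous recombination, had 9 and 10 peaks in control and 7 and 8 in knockdown, with 3 control-only loci. These were chr13:32356325-32356481 (folds of 4.08 and 3.91), chr13:32354904-32355210 (3.35 and 4.08) and chr13:32319003-32319214 (3.20 and 3.13). Without control replicate 1 the excess of control-only loci was 6. The 4 loci of BRCA2 in all 4 lists each ranked lower in both knockdown lists than in either control list. The broadest of them, chr13:32336319-32339222, had 7.73 and 7.07 in control and 4.58 and 4.70 in knockdown. BARD1, the obligate partner of BRCA1, went the other way, with 4 and 4 peaks in control and 6 and 6 in knockdown. Its 2 knockdown-only loci lay 326 and 105 bp from loci of all 4 lists: chr2:214779559-214780047 with folds of 5.23 and 8.13, and chr2:214774657-214774928 with 2.96 and 3.02.

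BRCA1, a ubiquitin ligase that promotes resection, had 12 and 12 peaks in control and 11 and 7 in knockdown. Its broadest locus, chr17:43092062-43094934, had folds of 6.32 and 7.90 in control and 8.77 and 10.2 in knockdown. Of its 15 loci 13 lie also in another RefSeq gene and 5 were on the opposite strand, including its control-only locus in NBR2. Its knockdown-only locus, chr17:43168832-43169257 (folds of 3.35 and 2.60), lies also in LOC101929767, LOC124900391 and the pseudogene BRCA1P1. RAD51B, a homologous recombination gene and the longest member, had 10 loci over 863318 bp, with 2 control-only, 2 knockdown-only and 0 in all 4 lists. The moved loci with the highest ranks were chr14:68677444-68677770 on the opposite strand (control-only, 5.97 and 5.10), chr14:68478858-68479058 (knockdown-only, 5.24 and 4.14) and chr14:68499830-68500116 (knockdown-only, 3.41 and 3.32). Without knockdown replicate 2 its control-only loci outnumbered the knockdown-only ones by 2. RAD52, a strand-annealing protein gene, had a strong shared locus at chr12:916768-917264, with 9.65 and 10.8 in control and 13.6 and 12.8 in knockdown. PALB2, which links BRCA1 to BRCA2, kept both of its loci. RAD54L had a single peak, in control replicate 1.

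All 6 moved loci of the RecQ helicases were control-only, of 14 control loci, with 3 in WRN and 3 in RECQL5. Of 9 knockdown loci 0 were knockdown-only. These shares rest on 14 and 9 loci, beside 21.4% and 18.3% in other protein-coding genes. WRN, the helicase mutated in Werner syndrome, had 6 and 10 peaks in control and 3 and 4 in knockdown. Its control-only loci were weak: chr8:31040243-31040398 with folds of 3.03 and 3.35, chr8:31074893-31075304 with 2.42 and 2.25, and chr8:31073492-31073708 with 3.70 and 1.49. Its strongest locus, chr8:31080767-31081512, was in all 4 lists with 6.71 and 6.98 against 8.24 and 7.72. RECQL5, a helicase that acts at transcribed and replicating DNA, had 6 and 9 peaks in control and 2 and 2 in knockdown. Its 3 control-only loci lay within 9 kb of the gene start: chr17:75660993-75661187 (4.99 and 4.55), chr17:75658300-75658492 (4.61 and 4.42) and chr17:75661505-75661821 (3.21 and 2.62). Without control replicate 1 the excess of control-only loci was 7 in WRN and 7 in RECQL5, against 3 in each with all 4 lists. BLM, the helicase of Bloom syndrome, kept its 3 control loci in all 4 lists. RECQL had 3 loci, each in 1 list, and RECQL4 a single locus in 3 lists.

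In the Fanconi anaemia pathway, which repairs crosslinks between strands, 5 of 23 control loci were control-only and 1 of 14 knockdown loci knockdown-only. FANCI, which pairs with FANCD2 at crosslinks, had 9 and 8 peaks in control and 5 and 4 in knockdown, and 4 of its 7 control loci were found in 1 knockdown list. FANCD2 had a strong locus in all 4 lists at chr3:10032718-10032935, with folds of 11.2 and 8.21 in control and 10.6 and 10.2 in knockdown, and a control-only locus with 6.25 and 5.64. FANCD2 has pseudogene copies, so reads of this gene are uncertain. FANCM kept all 4 of its loci, and its locus at the gene start, chr14:45135922-45137101, had 9.65 and 8.21 against 10.5 and 11.3. FANCA, a core complex subunit, had 2 control-only loci, and both of its shared loci were on the opposite strand in ZNF276. FANCC had no locus in both knockdown lists, with 4 and 0 peaks there and 2 and 5 in control. FANCL, the ubiquitin ligase of the pathway, had a knockdown-only locus 250 bp from its start (2.75 and 2.49).

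End-joining genes had 12 of 39 control loci control-only, 6 of them in XRCC6, and 3 of 25 knockdown loci knockdown-only. XRCC6 encodes Ku70, a subunit of the ring that binds broken ends first, and had 11 and 12 peaks in control and 4 and 5 in knockdown. Its strongest control-only loci fell in the last 8 kb of the gene. They were chr22:41661204-41661402 with folds of 8.07 and 8.38, chr22:41658152-41658328 with 6.89 and 7.16, and chr22:41656782-41656979 with 10.9 and 5.21. The first of these had the highest rank of all 45 control-only loci of the repair genes. A locus of all 4 lists in the same gene, chr22:41637516-41637746, had 7.36 and 7.34 in control and 2.50 and 3.08 in knockdown. XRCC5, encoding the partner subunit Ku80, had 9 and 11 peaks against 8 and 6, with 1 control-only locus and 5 of 11 loci in all 4 lists. Without XRCC6 the control-only loci of the 42 genes numbered 39, and the control-only share of moved loci was 72.2%.

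**Figure D4:**
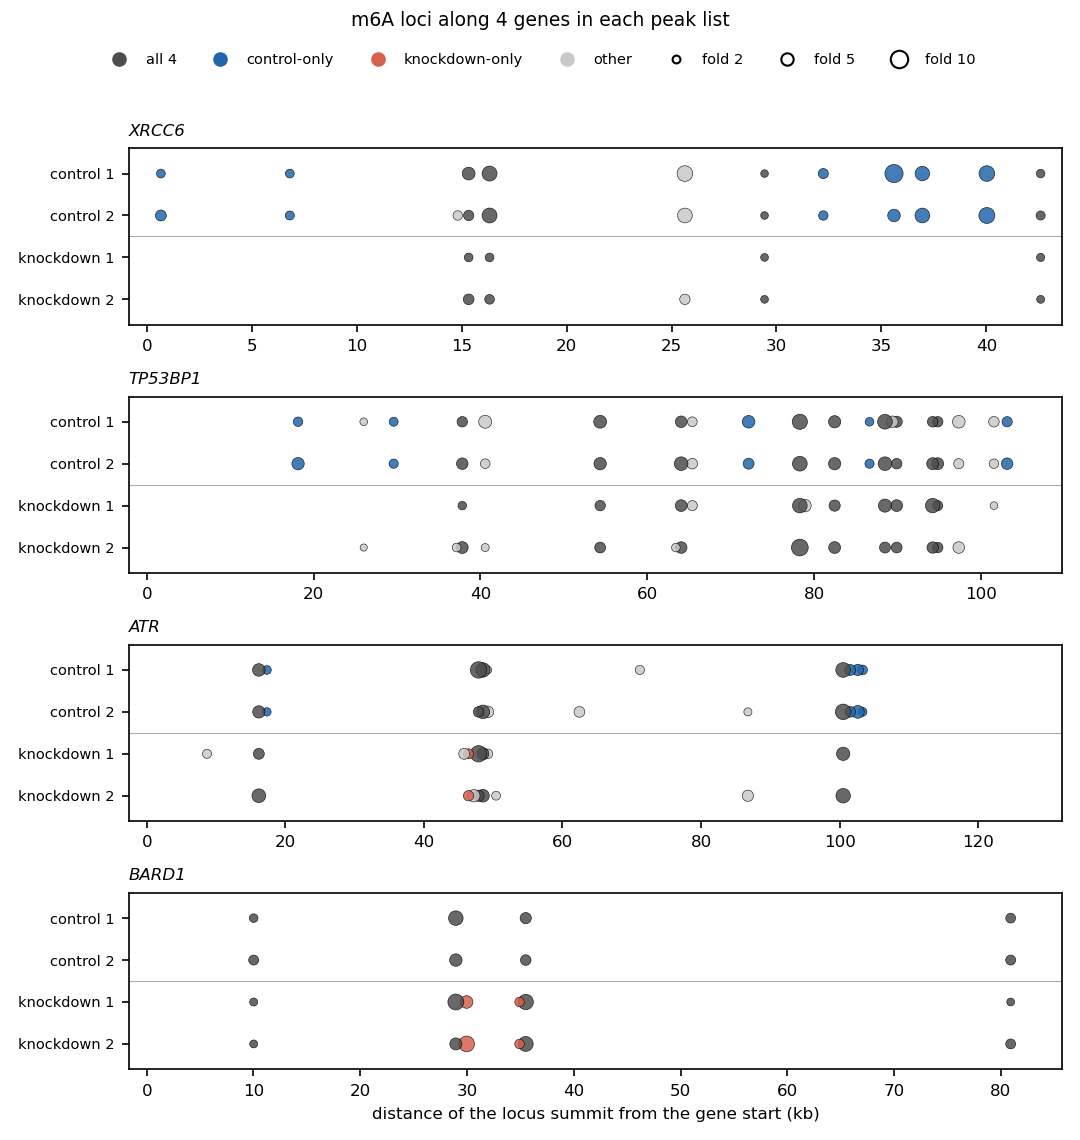
Loci on the gene strand of XRCC6, TP53BP1, ATR and BARD1 by distance from the gene start (horizontal axis, kb) in each of the 4 peak lists (rows); the area of a circle follows the fold enrichment and its colour the lists that hold the locus. XRCC6 has 6 control-only loci, 3 of them with the larger circles near its end, while BARD1 has 2 knockdown-only loci beside shared ones.

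PARP1 had 9 and 11 peaks in control and 9 and 9 in knockdown, and 7 of its 12 loci were in all 4 lists. Its moved loci were chr1:226381137-226381335 (knockdown-only, folds of 4.89 and 4.81), chr1:226361208-226361535 (control-only, 3.20 and 3.84) and chr1:226365144-226365297 (control-only, 2.05 and 2.18). Of its 7 shared loci, 4 ranked lower in both knockdown lists, and none higher. POLQ, the polymerase of microhomology-mediated joining, had 8 and 7 peaks against 6 and 4. Its control-only loci were chr3:121544789-121544997 (4.60 and 3.65), chr3:121526471-121526777 (2.53 and 3.14) and chr3:121510155-121510323 (2.1 and 2.39). XRCC4, the cofactor of ligase IV, had 2 and 2 peaks in control and 5 and 5 in knockdown, with 2 knockdown-only loci at chr5:83115541-83116169 (4.63 and 4.29) and chr5:83104771-83104939 (3.12 and 3.04). LIG4, encoding ligase IV, kept its single locus.

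The 3 remaining members had no moved locus. MSH6, a mismatch recognition subunit, kept its 5 control loci in all 4 lists. MSH3, its alternative partner, kept 1 of 2 control loci, and RAD18, the ubiquitin ligase that starts translesion synthesis, 1 of 2.

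Broad loci were among the shared ones. All 10 member loci of at least 1500 bp were in all 4 lists, as were 1506 of 1540 such loci in other protein-coding genes. A locus joins the peaks of its lists, so width and presence in many lists are linked by construction. The broad loci lay in ATR, RIF1, POLQ, LIG4, BRCA2, BRCA1, MSH6 and MDC1 (2 loci) and on the opposite strand of FANCA. BRCA1, BRCA2, LIG4 and MSH6 are known for a very long coding exon, but exons were not placed here. At RIF1 the locus chr2:151462789-151466260 had folds of 4.39 and 3.38 in control and 3.70 and 4.98 in knockdown, which overlap. At LIG4 the locus chr13:108208486-108211407 had 7.09 and 8.57 against 7.03 and 8.08.

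Loci in all 4 lists allow the rank of a fold to be compared among the same loci. Among these, the median percentile of the 120 repair gene loci was 58.9 and 57.1 in control and 51.4 and 47.9 in knockdown, while the 20088 loci of other protein-coding genes stayed between 49.2 and 49.9. The 2 groups of lists did not overlap, and 2 against 2 lists allow no p below 0.33. At 42 loci (35%) the rank was lower in both knockdown lists than in either control list, and at 17 (14.2%) it was higher. Other protein-coding genes gave 27.4% and 25.7%. Among the members with at least 4 shared loci, TP53BP1 had 5 lower and 2 higher of 11, RAD50 4 and 2 of 12, PARP1 4 and 0 of 7, BRCA2 4 and 0 of 4, and XRCC5 3 and 0 of 5. CLSPN had 2 and 1 of 6, BRCA1 1 and 0 of 6, and MSH6 1 and 0 of 5. Of 4 loci each, ATR had 2 and 0, XRCC6 2 and 1, BARD1, FANCM and MDC1 1 and 1, and PRKDC 0 and 0. The folds are the authors' own values per peak, and whether input RNA entered them was not stated. A lower rank therefore cannot be read as corrected for RNA level.

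Position along the gene was read where a strand was known. Of 297 loci on the strand of a member, 10 lay in the first 500 bp, 20 in the last 2000 bp and 267 between, or 3.37%, 6.73% and 89.9%, against 4.91%, 11.6% and 83.5% in other protein-coding genes. Of 16 gene-end loci in both control lists 5 were control-only (31.3%, against 16.2% in other genes), and of 6 gene-start loci 0 were (against 14.7%). The 5 lay in FANCA (538 bp from the end, folds of 4.31 and 4.03), PARP1 (601 bp), MDC1 (638 bp, 3.36 and 4.38), TOPBP1 (1141 bp, 3.50 and 4.68) and XRCC5 (1996 bp, 2.82 and 3). These shares rest on 16 and 6 loci.

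Other genes of the pathway, 106 in a list made by name, were counted in the same way. Of these, 94 had a locus, and 67 of 274 control loci were control-only (24.5%, Wilson interval 19.7% to 29.9%) while 14 of 205 knockdown loci were knockdown-only (6.83%, 4.11% to 11.1%). Other protein-coding genes gave 21.4% and 18.3%, so the control-only share was near theirs. By gene, 31 of the 94 had more control-only and 8 more knockdown-only loci, beside 28.8% and 23.8% of other protein-coding genes. None of these shares was weighted by loci per gene. XPC, which recognises distorted DNA, and ERCC6, which acts at stalled RNA polymerase, had 5 control-only and 0 knockdown-only loci each, the largest numbers in the list. The endonuclease gene ERCC5 and ERCC8 had 4 and 0 each. These genes act in nucleotide excision repair, but no list of that pathway was tested. Of other genes of that pathway in the list, DDB1 and DDB2 had 2 control-only loci each, ERCC1 and ERCC3 1 each, and XPA, ERCC2 and ERCC4 had 0. The next 4 genes were tied at 3 control-only loci: BABAM2, a subunit of a BRCA1 complex, had 3 and 1, and POLL, SHLD2 and UIMC1 had 3 and 0 each. Among other protein-coding genes with a locus, 6.85% had 3 or more control-only loci. RMI2, a partner of BLM, was the only gene of the list with 2 knockdown-only loci. Cell cycle and replication genes were counted beside them: of 25 listed, 21 had a locus, and 21 of 75 control loci were control-only (28%) and 3 of 48 knockdown loci knockdown-only (6.25%). Their control-only share of moved loci was 87.5%, against 82.7% in the other pathway genes and 75% in the 42 genes. In other protein-coding genes it was 56.3%. The part of RNA level or cell cycle state in these counts was not tested.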

How the data were processed

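Per the labels' protocols, a methylated spike-in was added to chromatin-associated RNA before fragmentation, and stranded libraries were made after m6A enrichment with a commercial kit. Trimming, alignment and peak calling are listed by tool only: per the submitters' processing notes, MACS2 2.2.7.1, HISAT2 2.1.0, Bowtie2 2.4.2, Trim Galore 0.6.6 and SAMtools, on hg38. Whether input and spike-in entered the calls was not stated. The deposited lists hold peaks per library and, by their peak names, per strand, with a fold enrichment (a ratio), −log10 p and q values and a score that repeats the q-value. Nothing in the deposited files gives counts, so depth is unknown.

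Loci, gene placement and shares were computed with Python 3.11.15 and pandas 2.3.3. Joining was tested only on simulated loci set far apart, which does not show how close neighbours are joined. Gene spans and starts came from RefSeq (GRCh38.p14), without exons. A strand was known for 36 members, was taken from at least 80% of at least 3 peak loci for 4, and was unknown for NBN and RECQL4. A locus in several genes counted in each. Fold percentiles rank peaks within a list. Matching used 6 classes of loci per gene. Named loci are those of members with at least 3 moved loci, up to 3 each by the lower fold percentile, the 5 members with most shared loci and the 5 highest-ranked shared loci, of which the text gives a part for members with many shared loci; other loci were chosen after their values were seen. The other pathway genes named are up to 5 per direction with at least 2 moved loci (ties by symbol); genes tied with them and other genes of their pathway were added after their values were seen. The members and lists were chosen with earlier results of these data known. Values per library were set against each other with exact permutation tests. The other 28 samples were not analysed here.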

Additional observations from a re-analysis of the deposited data

How the results depend on the processing

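The difference in peak number per library kept its direction in every alternative. Under alternative peak thresholds, overlap, strand and placement, and with each library left out, it lay between −65.5 and −23.5 peaks. Control-only loci numbered 26 with a fold of at least 4, and knockdown-only loci 8 with a −log10 q of at least 20. With that q the control-only share of moved loci was 85.5%, against 57.1% in other protein-coding genes. Leaving out 1 library gave 58 to 88 control-only and 19 to 30 knockdown-only loci. The shares were then 67.4% to 81.5%, against 48.1% to 63.8% in other protein-coding genes, both highest without control replicate 1. The share was 72.2% with a fold of at least 4 and 73.2% with lists of equal length, where other protein-coding genes had 46.3% and 50.5%. PARP1 turned to −1 (control-only minus knockdown-only loci) with a −log10 q of at least 20. With that q BRCA2 had 1 and RAD51B 2, against 3 and 0 in the main counts. BRCA2 also had 1 when peaks were joined by reciprocal overlap. With a fold of at least 4 the difference was 0 in BRCA2, TP53BP1, WRN and POLQ, 1 in ATR and 5 in XRCC6. Without control replicate 1 it was 6 in BRCA2 and 7 in WRN and RECQL5, and without knockdown replicate 2 it was 1 in ATR and 2 in RAD51B. The knockdown-only share minus that of matched genes was −7.84 to −7.01 percentage points under every matching, and the control-only share 0.965 to 2.96 points; matching by peak strength and leaving out XRCC6 or TP53BP1 were chosen after seeing the data. With the replicate number as a block the difference was −53.5 peaks (exact sign permutation p = 0.5, the smallest for 2 pairs), and the mean of the pairs was 95 loci in control only and 36 in knockdown only. The numbers carry no stated pairing, and the fold differences between replicates correlated across 23691 shared loci with r = 0.0028.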

Other observations

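Loci on the opposite strand of the repair genes were few. Of the 320 loci, 20 lay on the strand opposite to a member, in 9 genes, and 8 of these were in all 4 lists, 2 control-only and 1 knockdown-only. They included the shared loci of FANCA in ZNF276 and of MRE11 in ANKRD49, both of which overlap the member on that strand. On the gene strand or with the strand unknown, 43 of 185 control loci were control-only (23.2%) and 14 of 135 knockdown loci knockdown-only (10.4%).

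The distance of moved loci to shared ones was measured along each gene. Of the 45 control-only loci, 7 lay within 1000 bp of a locus of all 4 lists on the same strand of the gene (15.6%, against 16% in other protein-coding genes). Of the 15 knockdown-only loci 4 did (26.7% against 19.7%), both of those of BARD1 and 1 each of ATR and BRCA1.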
